A study of Mus musculus with 9 samples.

Results

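The genes described here encode the secreted WNT ligands, their receptors at the cell surface, the secreted antagonists that hold them off, and the proteins that carry the signal inwards. They were taken by name alone: a probe set was kept where the platform's annotation gives it a single gene symbol made of Dkk, Dvl, Fzd, Sfrp or Wnt and a number, or 1 of the symbols Axin1, Axin2, Ctnnb1, Frzb, Lef1, Lrp5 and Lrp6. This gave 46 probe sets for 38 of the 8251 genes that hold at least 1 probe set of their own on the array, namely 14 ligands, 10 receptors, 7 secreted antagonists, 6 cytoplasmic transducers and 1 nuclear factor. Tcf7 and Wif1, which the rule also names, had no probe set with a single symbol and were not analysed here. Each gene is given by its brightest probe set.

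RNA came from the whole inguinal (number 4) mammary gland of wild type C57BL/6J females, an inbred line, with no treatment and no altered allele in any group. The stages were puberty (virgin females of 6 weeks, 3 arrays), day 14 of pregnancy (2 arrays), day 10 of lactation (2 arrays) and day 4 of involution, counted from weaning (2 arrays). Each array was a biological replicate from its own female on Affymetrix MG-U74Av2, a short oligonucleotide array that reads 1 signal per probe set. The whole gland holds fat, stroma, vessels and immune cells beside the epithelium, so fewer cells of a type and less RNA per cell cannot be told apart.

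WNT proteins bind a Frizzled receptor together with the co-receptor LRP5 or LRP6. Dishevelled proteins then restrain the complex of Axin, APC and kinases that marks beta-catenin for destruction, and the beta-catenin that escapes enters the nucleus and works with TCF and LEF factors. In the mammary gland the pathway is known from Wnt1, first found as a site of insertion of the mouse mammary tumour virus, from Wnt4, which acts downstream of progesterone in side branching, and from Lef1, which is needed for the embryonic mammary bud.

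Promoter windows are shown for 4 of the genes on which the results turn, the 3 called higher at pregnancy than at puberty (Wnt4, Wnt5b, Ctnnb1) and the 1 called lower (Lef1). Each window runs from 250 bases before to 50 bases after a RefSeq start on GRCm38.p6. The set of promoter windows used here covered 24 of the 38 genes, with 31 windows in all. It covered 7 of the 11 genes named below by their test, with none for Lrp6, Fzd8, Fzd2 and Wnt5a. Capitals mark the TCF/LEF core (CTTTGA, or TCAAAG on the other strand) and the GC box (GGGCGG, or CCGCCC on the other strand), each overlapping match counted.
Wnt4, chr4:137277385-137277684, plus strand: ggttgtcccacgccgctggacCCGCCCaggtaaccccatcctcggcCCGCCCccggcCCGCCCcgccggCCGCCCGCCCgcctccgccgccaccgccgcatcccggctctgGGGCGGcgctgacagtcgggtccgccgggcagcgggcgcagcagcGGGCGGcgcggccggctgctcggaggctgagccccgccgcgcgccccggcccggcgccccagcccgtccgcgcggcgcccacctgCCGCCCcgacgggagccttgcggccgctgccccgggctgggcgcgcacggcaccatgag
Wnt5b, the third of 3 listed starts, chr6:119449337-119449636, minus strand: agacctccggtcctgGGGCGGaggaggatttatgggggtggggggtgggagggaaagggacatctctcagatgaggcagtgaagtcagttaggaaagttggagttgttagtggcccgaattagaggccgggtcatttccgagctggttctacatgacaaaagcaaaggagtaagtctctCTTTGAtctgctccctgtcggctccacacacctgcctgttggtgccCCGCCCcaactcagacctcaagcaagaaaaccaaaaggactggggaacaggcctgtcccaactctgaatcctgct
Ctnnb1, the first of 2 listed starts, chr9:120933150-120933449, plus strand: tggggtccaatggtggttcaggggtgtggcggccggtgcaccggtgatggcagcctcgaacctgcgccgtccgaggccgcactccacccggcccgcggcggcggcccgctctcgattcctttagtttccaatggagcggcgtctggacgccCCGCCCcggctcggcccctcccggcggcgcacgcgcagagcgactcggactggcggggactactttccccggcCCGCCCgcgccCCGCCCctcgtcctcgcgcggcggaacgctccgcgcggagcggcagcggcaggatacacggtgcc
Lef1, the first of 4 listed starts, chr3:131110047-131110346, plus strand: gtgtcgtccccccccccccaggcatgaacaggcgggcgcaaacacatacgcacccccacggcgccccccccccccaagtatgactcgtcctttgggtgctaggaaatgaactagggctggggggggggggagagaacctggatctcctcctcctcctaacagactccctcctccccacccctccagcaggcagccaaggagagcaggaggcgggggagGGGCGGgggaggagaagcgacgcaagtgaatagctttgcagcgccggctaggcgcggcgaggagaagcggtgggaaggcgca
Lef1, the fourth of 4 listed starts, chr3:131156044-131156343, plus strand: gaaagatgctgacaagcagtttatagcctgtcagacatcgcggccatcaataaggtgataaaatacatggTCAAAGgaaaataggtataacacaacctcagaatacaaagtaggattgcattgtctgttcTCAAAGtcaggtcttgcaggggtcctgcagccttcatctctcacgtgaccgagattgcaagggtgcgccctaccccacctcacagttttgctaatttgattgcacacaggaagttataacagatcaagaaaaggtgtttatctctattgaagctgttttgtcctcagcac

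The Wnt4 window held 8 GC boxes and no TCF/LEF core, with 84.3% of its bases G or C, against a median of 52.7% over all 32851 mouse windows. The Wnt5b window held 1 TCF/LEF core, 71 bases before the start, and 2 GC boxes, and it is shown because the windows of the other 2 Wnt5b starts held no such core, with 3 GC boxes in the first and 0 in the second. The Ctnnb1 window held 3 GC boxes and no TCF/LEF core. The windows of the first 3 Lef1 starts each held 1 GC box and no TCF/LEF core. The fourth, the only Lef1 window with that core, held no GC box and 2 TCF/LEF cores, 180 and 120 bases before the start. Over the family, 6 of the 31 windows held the TCF/LEF core, against 16% of all windows, and 25 of 31 held a GC box, against 35.7%. A match is a run of letters and not a measured site, and the probe sets do not tell which start a transcript used.

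A signal below is the deposited MAS5 intensity scaled so that every array has a median of 51. Signals under 20 were set to 20, the floor, before log2 was taken for the tests, and a stage mean above 20 in at least 1 stage was asked of a probe set before it was tested. Of 12422 probe sets that are not controls, 9783 passed and were tested with limma, by an F test over the 4 stages and by 4 contrasts, with p-values adjusted over all 9783. Arrays of 1 stage correlated at 0.947 to 0.975 and arrays of different stages at 0.724 to 0.935, and 13.2% to 15.5% of the tested probe sets lay at the floor on an array. The number of arrays limits the precision, with 3 at puberty and 2 at each other stage. Luminal markers were present at every stage, with all 8 on the array, and their summed signal was 1989.5 to 3459.3 at puberty, 5690.6 to 6508.6 at pregnancy, 4455.4 to 5262.1 at lactation and 3313.5 to 4868.7 at involution. Elf5 alone had a mean of 39.2 at puberty and 3008 at lactation. Krt18, Krt19 and Cldn4 had lower means at lactation than at puberty, and Krt8, Epcam, Cdh1 and Cldn3 higher ones. The luminal sum is thus not a measure of luminal content. Of the 7 measured basal markers Krt14 had no stage mean above 20, and Krt5 was at the floor on all arrays of puberty and pregnancy. The basal markers summed to 790.1 to 992.9 at puberty, 3124.7 to 3382.9 at pregnancy, 2262.9 to 2270.3 at lactation and 1561.7 to 1726.8 at involution. Acta2, Myh11, Cnn1 and Trp63 were 3.69-fold, 4.06-fold, 5.16-fold and 2.9-fold higher at pregnancy than at puberty, with adjusted p of 0.00116, 0.00016, 0.000397 and 0.0154, and the part of luminal and basal cells in the pregnancy values of Wnt4, Wnt5b and Ctnnb1 was not tested. Skeletal muscle markers summed to 9133.7 to 22311.8 at puberty, 208 to 1203.4 at pregnancy, 200.4 to 252.3 at lactation and 411.8 to 575.5 at involution.

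Of the 38 WNT genes, 19 reached a stage mean above the array median, 12 were near background, with their highest stage mean between 20 and the median, and 7 had no stage mean above 20 and were not tested. The 7 at the floor were the ligands Wnt3a, Wnt7a, Wnt7b, Wnt8a and Wnt11 and the antagonists Dkk1 and Frzb. Those near background were Wnt2b, Wnt3, Wnt5a, Wnt6, Wnt10b, Fzd1, Fzd6, Fzd7, Lrp5, Sfrp1, Dkk2 and Axin2. By role, 4 of 14 ligands, 6 of 10 receptors, 3 of 7 antagonists and 5 of 6 transducers were above the median, as was Lef1. This class rests on the highest stage mean alone. Wnt4 and Dvl3 exceeded the median, and also 20, at 1 stage only, and Wnt10a and Fzd9 exceeded the median at lactation only. Probe sets differ in how strongly they bind, so a low signal is a statement about the probe set and not a ranking of transcripts.

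**Figure D1:**
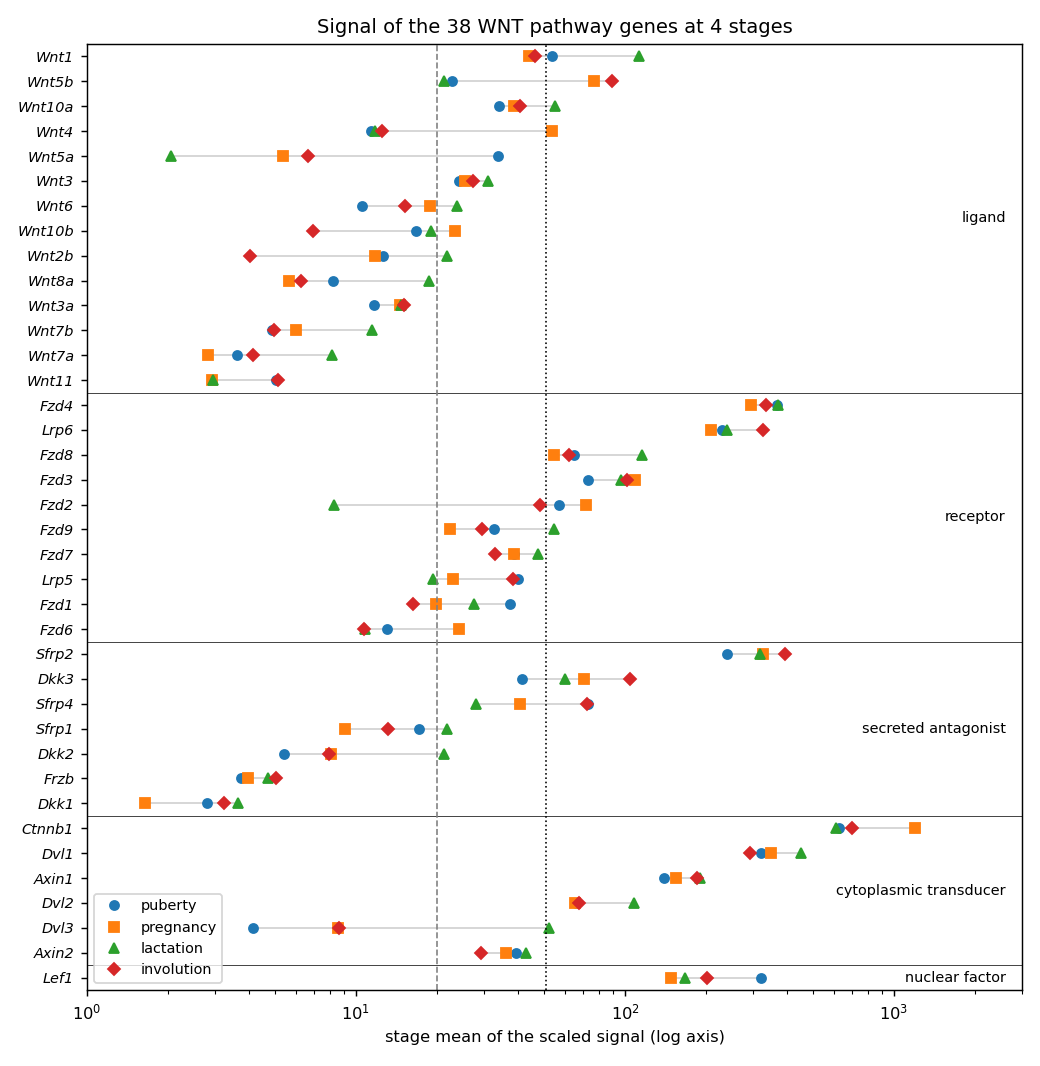
Mean scaled signal of the 38 WNT genes at puberty, pregnancy, lactation and involution, on a log axis and grouped by role, with the floor of 20 dashed and the array median of 51 dotted. The 7 genes with no stage mean above 20 lie wholly left of the floor, and Ctnnb1 lies highest.

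Among the 31 WNT genes tested, 10 (32.3%) differed across the stages by the F test, against 51.6% of all 9783 probe sets. Of the 19 above the array median 9 differed (47.4%), against 60% of all probe sets in that range, and of the 12 near background 1 differed (8.33%), against 23.2%. Pregnancy against puberty called 4 of 31 (12.9%, background 11.4%), with 3 higher (background 6.2%) and 1 lower (5.22%). Lactation against pregnancy called 7 (22.6%, background 41.2%), with 3 higher (background 21.6%) and 4 lower (19.7%). Involution against lactation called 6 (19.4%, background 45.1%), with 2 higher (background 22.1%) and 4 lower (23%). Involution against puberty called 2 (6.45%, background 7.48%), with 1 higher (background 4.39%) and 1 lower (3.1%). With these settings the share of WNT genes called was below that of all probe sets in the contrasts that involve lactation. It was near that share in both contrasts with puberty. The shares of the contrasts were not split by signal range, and 12 of the 31 WNT genes lay near background. The median log2 difference of the 31 genes was 0, 0.24, -0.16 and -0.05 in these 4 contrasts, against 0, 0.07, -0.03 and 0.05 over all probe sets.

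The genes called did not share a stage. The highest mean of the 10 fell at puberty for Wnt5a and Lef1, at pregnancy for Wnt4, Fzd2 and Ctnnb1, at lactation for Wnt1, Fzd8 and Dvl3, and at involution for Wnt5b and Lrp6. Another 20 tested genes passed in no test, with F adjusted p between 0.0666 and 0.738, and Dvl1 passed in 1 contrast alone.

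Wnt4, the ligand that acts downstream of progesterone, was measured above the floor at pregnancy only. Its signal was 8.7, 16.3 and 9.1 at puberty, 60.4 and 47.1 at pregnancy, 10.3 and 13.4 at lactation and 17.2 and 7.8 at involution. Both pregnancy arrays stood above all 7 others, which were under the floor. The F test gave an adjusted p of 0.00031. Wnt4 was at least 2.67-fold higher at pregnancy than at puberty (log2 difference 1.41, SE 0.15, adjusted p = 0.001) and at least 2.67-fold lower at lactation than at pregnancy (log2 difference -1.41, SE 0.16, adjusted p = 0.000311). Wnt4 passed the filter at pregnancy alone, the stage at which it was then called higher. The 7 other arrays were all set to the floor and add no spread. The SE and p-values thus leave out the replicate variation of those arrays. The 2 pregnancy signals lie close to the array median, and with a floor of 50 the F adjusted p was 0.45.

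Wnt5b, a ligand that mostly signals without beta-catenin, rose at pregnancy, fell at lactation and rose again at involution. Signals were 27.4, 12.1 and 28.8 at puberty, 73.5 and 79.7 at pregnancy, 12.9 and 29.8 at lactation and 78.6 and 100.7 at involution. The 4 arrays of pregnancy and involution all lay above the 5 of puberty and lactation, with no overlap. Stage means were 22.8 ± 9.28 at puberty (SD, n = 3), 76.6 ± 4.4 at pregnancy, 21.3 ± 12 at lactation and 89.7 ± 15.6 at involution (SD, n = 2 each), and the F adjusted p was 0.000867. The log2 difference was 1.61 for pregnancy against puberty (SE 0.26, adjusted p = 0.00671), -1.65 for lactation against pregnancy (SE 0.29, adjusted p = 0.00248), 1.87 for involution against lactation (SE 0.29, adjusted p = 0.00112) and 1.83 for involution against puberty (SE 0.26, adjusted p = 0.00488). Without pregnancy replicate 2 the first of these had an adjusted p of 0.0749, and without involution replicate 2 the last had 0.0575. Macrophage markers, 7 of 7 measured, summed to 3417.3 to 4049.7 at puberty, 3730.2 to 3791.6 at pregnancy, 2171.1 to 3051.7 at lactation and 8039.2 to 9569.8 at involution, and their part in the Wnt5b values was not tested.

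Wnt5a, the close relative of Wnt5b, had its highest signals at puberty and lay near background throughout. It gave 44.0, 33.2 and 24.3 at puberty, 8.0 and 2.7 at pregnancy, 1.6 and 2.5 at lactation and 9.0 and 4.3 at involution. Only the 3 puberty arrays were above the floor. Wnt5a thus passed the filter at puberty alone. Its other arrays were all set to the floor, so the SE and p-values leave out their replicate variation. The F adjusted p was 0.0389, while neither pregnancy against puberty (log2 difference -0.72, SE 0.22, adjusted p = 0.0763) nor involution against puberty (log2 difference -0.72, SE 0.22, adjusted p = 0.0953) passed. The F call was lost on leaving out any array other than puberty replicate 3, with adjusted p between 0.0838 and 0.12.

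Wnt1, the ligand of the classical mammary tumour locus, was highest at lactation. It read 55.6, 53.3 and 51.1 at puberty, 40.6 and 47.5 at pregnancy, 148.6 and 76.7 at lactation and 43.7 and 49.2 at involution. Both lactation arrays lay above the other 7, but they differed from each other by more than the other 7 did among themselves. The lactation mean was 113 ± 50.8 (SD, n = 2). The log2 difference was 1.28 for lactation against pregnancy (SE 0.32, adjusted p = 0.0118) and -1.20 for involution against lactation (SE 0.32, adjusted p = 0.0142), with an F adjusted p of 0.0244. The F call was lost on omitting pregnancy replicate 1 (0.0664) or 2 (0.0568) or involution replicate 1 (0.0589). Without pregnancy replicate 1 lactation against pregnancy had an adjusted p of 0.0785, and without involution replicate 1 involution against lactation had 0.0769. Without lactation replicate 1, the brighter array, both contrasts passed with log2 differences of 0.81 and -0.73.

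**Figure D2:**
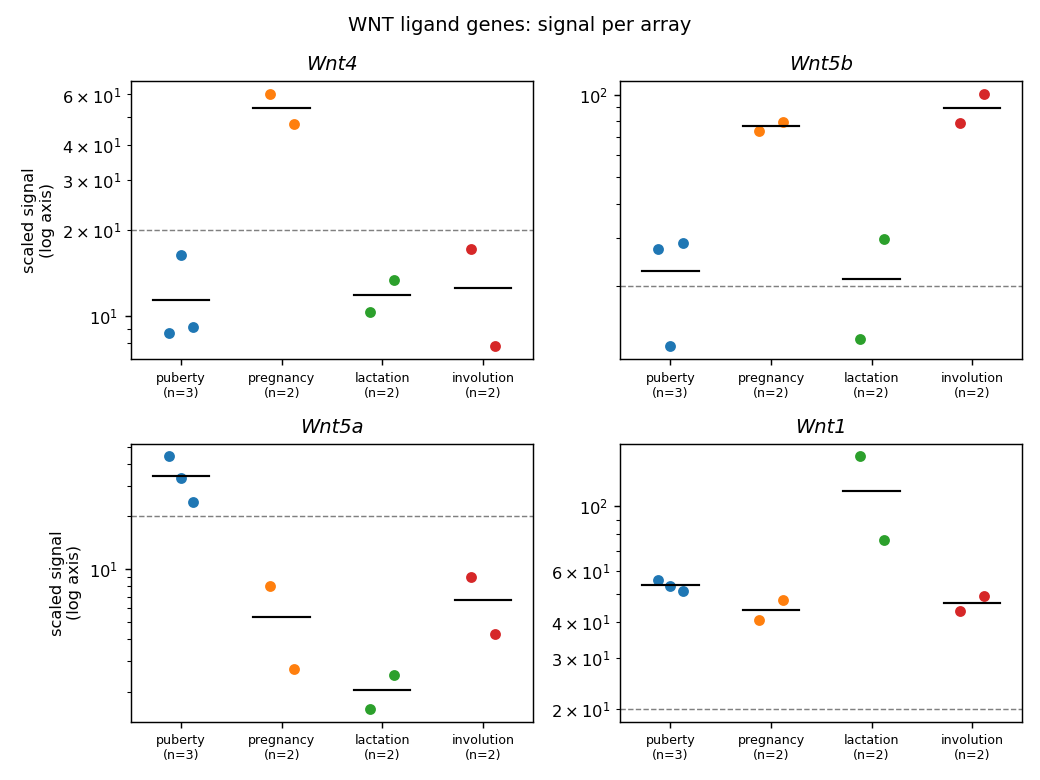
Scaled signal of Wnt4, Wnt5b, Wnt5a and Wnt1 on each of the 9 arrays, by stage, with the stage mean as a bar and the floor of 20 dashed. Wnt4 stands above the floor at pregnancy alone, Wnt5a at puberty alone, Wnt5b is higher on all pregnancy and involution arrays than on those of puberty and lactation, and Wnt1 is highest at lactation.

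No other ligand passed a test. Wnt10a, which the epithelial placode uses early in development, gave 34.9, 34.1 and 32.8 at puberty, 36.2 and 41.4 at pregnancy, 56.5 and 53.5 at lactation and 31.7 and 49.9 at involution, with an F adjusted p of 0.130. Its lactation arrays were the highest 2 of the 9. Wnt3 stayed between 17.1 and 37.0 on all 9 arrays (F adjusted p = 0.738). Wnt2b, Wnt6 and Wnt10b passed the filter at 1 stage each, and none of their arrays exceeded the median of 51. The highest single signal of the 5 ligands at the floor was 25.6, for Wnt8a on lactation replicate 1.

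Among the receptors, the Frizzled genes Fzd2 and Fzd8 moved in opposite directions at lactation. Fzd2 gave 64.6, 57.0 and 49.3 at puberty, 76.9 and 65.8 at pregnancy, 4.3 and 12.3 at lactation and 24.5 and 72.3 at involution. Both lactation arrays were under the floor and all others above it, and the 2 involution arrays were far apart. Fzd2 was at least 3.56-fold lower at lactation than at pregnancy (log2 difference -1.83, SE 0.44, adjusted p = 0.0106), and involution against lactation did not pass (log2 difference 1.07, SE 0.44, adjusted p = 0.0761). The F adjusted p was 0.0267. It was lost on omitting puberty replicate 1 (0.0505) or 2 (0.0506), pregnancy replicate 1 (0.0913) or 2 (0.0796), or lactation replicate 1 (0.191) or 2 (0.19). Lactation against pregnancy was lost on omitting pregnancy replicate 1 (0.0772) or 2 (0.0532) or lactation replicate 1 (0.0826) or 2 (0.0777). With a floor of 50 it came to -0.51 (adjusted p = 0.122), and the F adjusted p to 0.325. Fibroblast markers, 8 of 8 measured and none at the floor, summed to 12496.5 to 16414.8 at puberty, 13681.4 to 14969.4 at pregnancy, 3740.9 to 4478.4 at lactation and 8671.3 to 9352.2 at involution, and their part in the fall of Fzd2 was not tested.

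Fzd8 was higher at lactation than at any other stage. Its signals were 70.9, 61.2 and 62.0 at puberty, 59.9 and 48.6 at pregnancy, 112.9 and 117.7 at lactation and 55.7 and 68.2 at involution. The lactation arrays stood clear of the other 7, which spanned 48.6 to 70.9. It was 2.14-fold higher at lactation than at pregnancy (log2 difference 1.09, SE 0.23, adjusted p = 0.00569) and lower at involution than at lactation (log2 difference -0.90, SE 0.23, adjusted p = 0.0123). The F adjusted p was 0.0138, and 0.0546 without lactation replicate 2.

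Lrp6, the co-receptor that WNT and Frizzled engage, was called with a small difference. It gave 229.7, 258.9 and 201.8 at puberty, 215.6 and 200 at pregnancy, 238.8 and 241.2 at lactation and 341.7 and 312.2 at involution. The involution arrays were the highest 2 of the 9, and puberty overlapped both pregnancy and lactation. Involution was 1.36-fold above lactation (log2 difference 0.44, SE 0.16, adjusted p = 0.046), the F adjusted p was 0.0286, and involution against puberty gave a log2 difference of 0.51 (SE 0.14, adjusted p = 0.0676). The F call was lost without puberty replicate 1 (0.0526), pregnancy replicate 1 (0.0519) or 2 (0.0647), or involution replicate 1 (0.107) or 2 (0.0599). The contrast passed on leaving out puberty replicate 3 alone among the 9 arrays, and had adjusted p between 0.0515 and 0.133 under 15 of 21 alternatives. A second Lrp6 probe set was under the floor on all 9 arrays and was not tested. Lrp5, the other co-receptor, was near background and ranged within stages as widely as between them, with 6.3 and 70.5 on the 2 involution arrays (F adjusted p = 0.326).

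The brightest Frizzled was Fzd4, which also serves as the receptor of Norrin in vessels. It gave 418.1, 322.6 and 359.3 at puberty, 299.5 and 290.7 at pregnancy, 393.3 and 345.5 at lactation and 248.8 and 418.6 at involution (F adjusted p = 0.528) and all 7 other arrays lay between the 2 involution signals. On a second, dimmer Fzd4 probe set the involution arrays were the highest 2 of the 9, with 28.4 and 31.9, and the F test passed (adjusted p = 0.0207). Fzd3, a receptor of the planar polarity branch, spanned 62.8 to 127.9 on its brightest probe set (F adjusted p = 0.209). Its dimmer probe set gave 45.0 and 32.0 at lactation, against 20.9 and 22.3 at pregnancy (log2 difference 0.81, adjusted p = 0.0119), so the 2 Fzd3 probe sets do not give 1 account. Fzd1, Fzd6, Fzd7 and Fzd9 passed no test.

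The secreted antagonists gave no call in any test, with 5 of the 7 tested. The F test called 51.6% of all probe sets, 60% of those above the array median and 23.2% of those near background. Sfrp1 and Dkk2 lay near background, and 5 genes are too few to speak for antagonists as a class. The smallest adjusted p was 0.0666 by the F test and 0.0671 in a contrast, both for Dkk3, and limma gave 1 of the 5 an unadjusted F p under 0.05 and 2 of the 5 an unadjusted contrast p under 0.05. Without limma's moderation of the spread the count was also 0, with 39.4% of all probe sets called by the F test. Dkk3, a divergent member of its family, gave 46.3, 39.2 and 39.3 at puberty, 50.7 and 90.7 at pregnancy, 75.6 and 44.1 at lactation and 129.8 and 78.2 at involution. Both involution arrays lay above all 3 puberty arrays (log2 difference 1.28, SE 0.36), while pregnancy and lactation overlapped involution or each other. Sfrp2, a decoy with a Frizzled-like domain made by stroma, was the brightest antagonist, with 211.3, 237.9 and 268.1 at puberty, 324.9 and 324.5 at pregnancy, 394.4 and 241.9 at lactation and 335.1 and 450.4 at involution (F adjusted p = 0.102). Sfrp4 gave 59.7, 76.3 and 81.8 at puberty, 58.8 and 22.9 at pregnancy, 48.6 and 7.3 at lactation and 54.4 and 89.5 at involution (F adjusted p = 0.134). Within pregnancy and within lactation the 2 Sfrp4 arrays differed by more than 2-fold. Sfrp1 and Dkk2 exceeded the filter in 1 stage each and never the array median.

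Inside the cell, Ctnnb1, which encodes beta-catenin, was the brightest gene of the family and rose at pregnancy. It gave 615.9, 652.8 and 609.4 at puberty, 1061 and 1331 at pregnancy, 652.4 and 569.3 at lactation and 833.3 and 566.5 at involution. Both pregnancy arrays stood above the other 7, and lactation overlapped puberty. Means were 626 ± 23.4 at puberty (SD, n = 3) and 1196 ± 191 at pregnancy, 611 ± 58.8 at lactation (SD, n = 2 each). Ctnnb1 was 1.9-fold higher at pregnancy than at puberty (log2 difference 0.93, SE 0.18, adjusted p = 0.0124) and lower at lactation than at pregnancy (log2 difference -0.96, SE 0.20, adjusted p = 0.00507), with an F adjusted p of 0.00853. Without pregnancy replicate 2 the F adjusted p was 0.096 and that of pregnancy against puberty 0.144. Without lactation replicate 2 pregnancy against puberty had 0.0514 and lactation against pregnancy 0.0511. Beta-catenin also joins cadherins at cell contacts. Of 8 luminal markers 4 were called higher at pregnancy than at puberty (6.2% of all probe sets). At lactation against pregnancy 5 were called lower and 1 higher (19.7% and 21.6% of all). Cdh1, the cadherin among them, was not called in either contrast (log2 differences 0.45 and 0.38, adjusted p = 0.249 and 0.233). Its highest mean was at lactation. Of the 7 measured basal markers 4 were called higher at pregnancy and 3 lower at lactation, and the sums of both lists are given above. The part of these cells or of cell contacts in the Ctnnb1 values was not tested.

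The 3 Dishevelled genes had their highest means at lactation, but only Dvl3 passed the F test. Dvl3 gave 5.3, 4.0 and 3.1 at puberty, 8.6 and 8.6 at pregnancy, 48.4 and 56.2 at lactation and 7.4 and 9.9 at involution. The lactation arrays alone were above the floor. Dvl3 thus passed the filter at lactation alone, the stage at which it was then called higher. Its other arrays were all set to the floor, so the SE and p-values leave out their replicate variation. Lactation exceeded pregnancy by at least 2.61-fold (log2 difference 1.38, SE 0.15, adjusted p = 0.000224) and involution was at least 2.61-fold below lactation (log2 difference -1.38, SE 0.15, adjusted p = 0.000152). The F adjusted p was 0.000208, and 0.45 with a floor of 50, since both lactation signals lie near the array median.

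Dvl1 gave 336.1, 291.5 and 328.9 at puberty, 262.3 and 437.1 at pregnancy, 452.0 and 452.4 at lactation and 266.0 and 315.2 at involution. It was lower at involution than at lactation (log2 difference -0.64, SE 0.23, adjusted p = 0.0457), with an F adjusted p of 0.130. That contrast was lost under 14 of 21 alternatives, the omission of each puberty array (0.0641, 0.0625 and 0.0655), each lactation array (0.169 and 0.164) and each involution array (0.218 and 0.0798) among them. Dvl2 gave 61.7, 57.8 and 77.8 at puberty, 62.6 and 67.8 at pregnancy, 107.4 and 109.5 at lactation and 54.7 and 79.8 at involution, with the lactation arrays above the other 7 and an F adjusted p of 0.0801. A second Dvl2 probe set read 102.7 and 88.9 at lactation, against at most 14.8 on the other 7 arrays, and differed by the F test (adjusted p = 3.29e-05). That probe set passed the filter at lactation alone. Its other 7 arrays were all set to the floor, so the p-value leaves out their replicate variation.

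Axin1 and Axin2, scaffolds of the destruction complex, passed no test. Axin2, itself a widely used target of beta-catenin, gave 41.2, 39.6 and 37.1 at puberty, 40.9 and 31.5 at pregnancy, 30.5 and 55.0 at lactation and 31.8 and 26.3 at involution (F adjusted p = 0.432). Its signals lay near background, and every other array but involution replicate 2 fell between the 2 lactation signals. Axin1 spanned 125.9 to 234.6 over the 9 arrays (F adjusted p = 0.378).

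Lef1, the DNA-binding partner of beta-catenin, was the gene that fell most clearly after puberty. It gave 306.9, 303.9 and 347.8 at puberty, 157.9 and 137.9 at pregnancy, 170.4 and 164.2 at lactation and 214.2 and 190.4 at involution. All 3 puberty arrays lay above the other 6, and the stages did not overlap. Means were 320 ± 24.5 at puberty (SD, n = 3) and 148 ± 14.2 at pregnancy, 167 ± 4.39 at lactation and 202 ± 16.8 at involution (SD, n = 2 each). Lef1 was 2.16-fold lower at pregnancy than at puberty (log2 difference -1.11, SE 0.14, adjusted p = 0.00238), and neither lactation against pregnancy (0.18, adjusted p = 0.374) nor involution against lactation (0.27, SE 0.15, adjusted p = 0.181) passed. At involution it was 1.58-fold lower than at puberty (log2 difference -0.66, SE 0.14, adjusted p = 0.0256). That last call was lost without puberty replicate 1 (0.0697), 2 (0.0646) or 3 (0.081) or involution replicate 2 (0.12). The F adjusted p was 0.000918 and passed under all 22 alternatives, as did pregnancy against puberty.

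A second, dimmer Lef1 probe set was also highest at puberty, with 84.4, 87.5 and 66.0 at puberty, 21.5 and 5.9 at pregnancy, 11.7 and 12.5 at lactation and 54.6 and 7.3 at involution (F adjusted p = 0.00536; pregnancy against puberty log2 difference -1.92, adjusted p = 0.012). Its 2 involution arrays overlapped those of pregnancy and lactation, and its lowest mean was at lactation, not at pregnancy. Lef1 is also expressed by T cells, and 7 of 8 listed T cell markers were measured. They summed to 866 to 957.7 at puberty, 301.5 to 345.1 at pregnancy, 249.5 to 301.2 at lactation and 558.5 to 675.4 at involution, with Cd3g, Cd2 and Cd5 at the floor at lactation. In the tests, 6 of the 7 fell at pregnancy against puberty (5.22% of all probe sets) and 5 rose at involution against lactation (22.1%). All 8 skeletal muscle markers fell at pregnancy and at involution against puberty (5.22% and 3.1% of all probe sets). The part of T cells and of muscle in the Lef1 and Wnt5a signals of puberty was not tested.

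**Figure D3:**
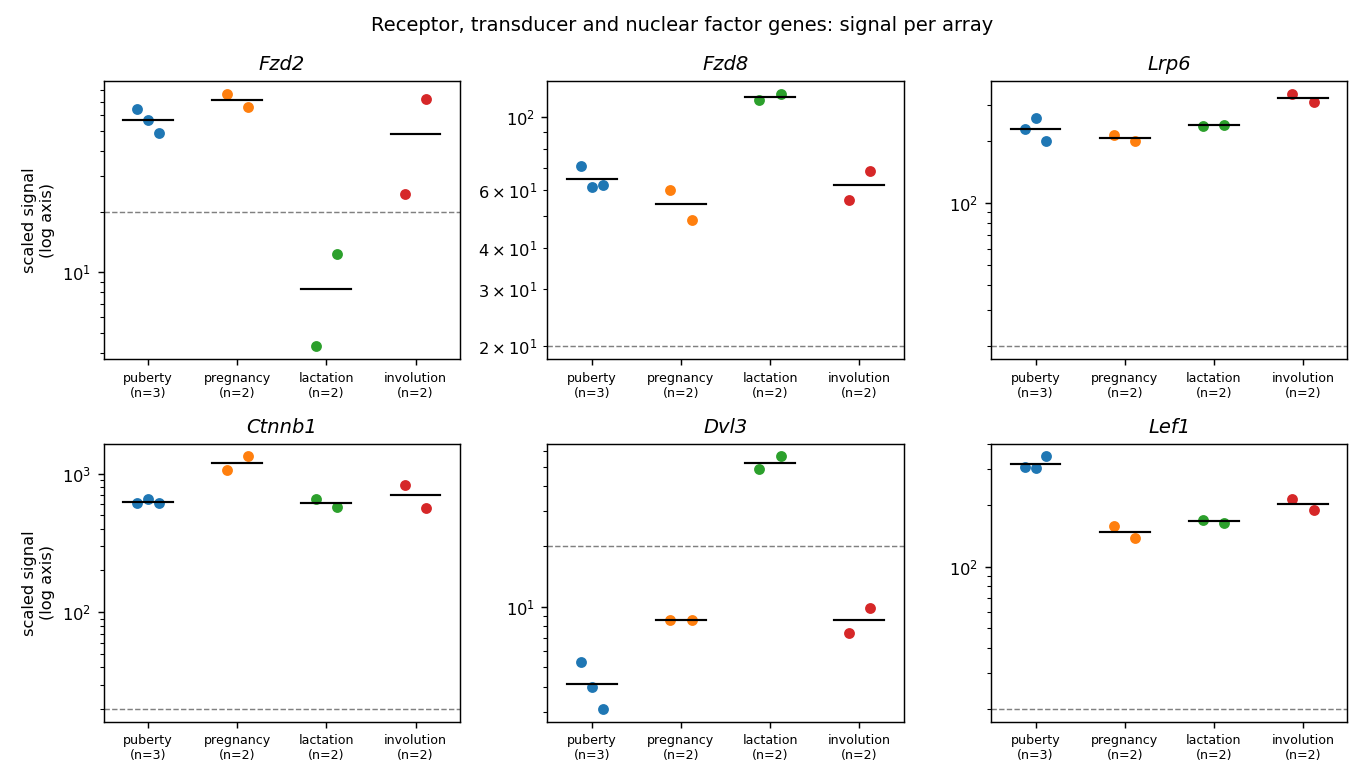
Scaled signal of Fzd2, Fzd8, Lrp6, Ctnnb1, Dvl3 and Lef1 on each of the 9 arrays, by stage, with the stage mean as a bar. Ctnnb1 is highest on both pregnancy arrays, Fzd8 and Dvl3 on both lactation arrays, Lrp6 on both involution arrays and Lef1 on the 3 puberty arrays, and Fzd2 is under the floor of 20 at lactation.

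**Figure D4:**
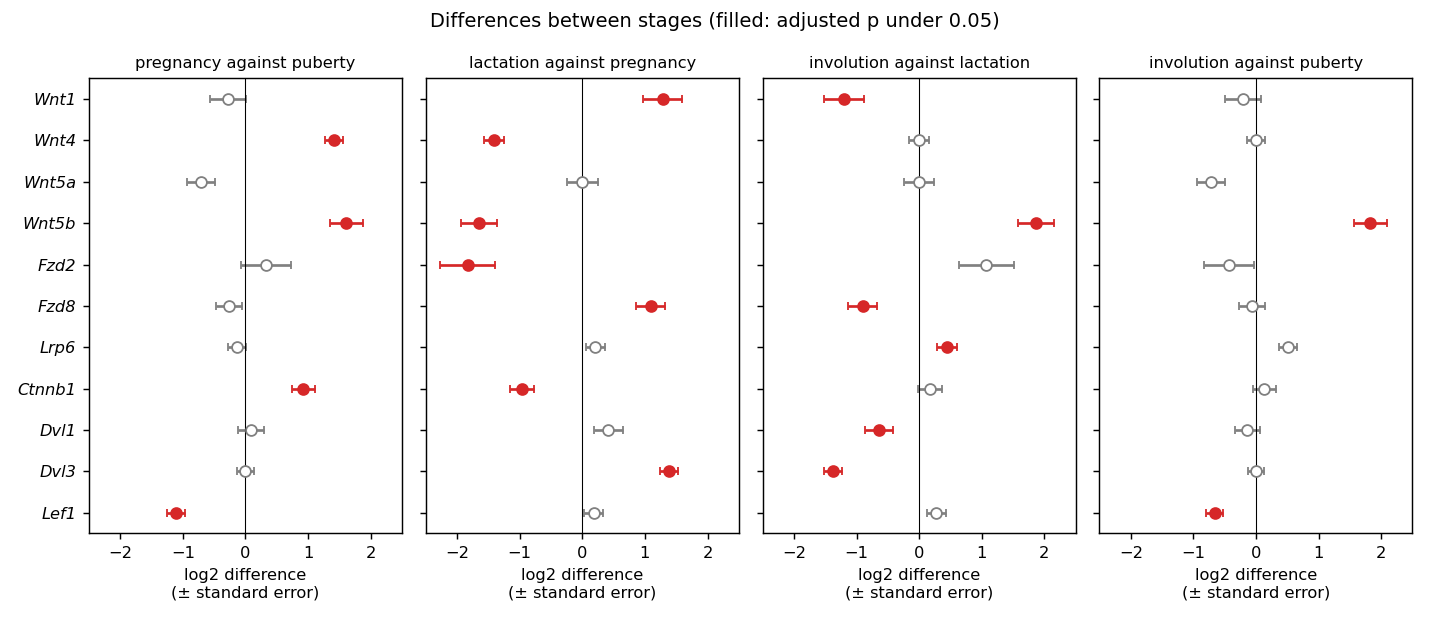
Log2 difference with its standard error in the 4 contrasts for the 11 WNT genes that passed a test, with filled points where the adjusted p is under 0.05. Wnt4, Wnt5b and Ctnnb1 lie right of 0 and Lef1 left of 0 for pregnancy against puberty, and Wnt1, Fzd8 and Dvl3 lie right of 0 for lactation against pregnancy.

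Outside the family proper, other genes of the pathway were followed by 5 lists. Of the regulators of WNT secretion and of its extracellular handling 8 of 16 were measured, 5 were tested and all 5 differed by the F test. Of these 5, 2 were called higher at pregnancy against puberty (background 6.2%). At lactation against pregnancy 1 was called higher and 4 lower (background 21.6% and 19.7%). Rspo2, Cer1 and Tnfrsf19 had no stage mean above 20. Of other receptors 7 of 13 were measured, 4 tested and 2 called. Of the destruction complex and its regulators 14 of 21 were measured and tested and 6 called, of the nuclear partners of beta-catenin 15 of 19 were measured and tested and 9 called, and of WNT target genes 18 of 21 were measured, 15 tested and 9 called. The F test called 51.6% of all probe sets, and these lists stand on few genes each. The median log2 difference of the target genes was 0.05 for pregnancy against puberty, -0.33 for lactation against pregnancy, 0.44 for involution against lactation and 0.23 for involution against puberty, against 0, 0.07, -0.03 and 0.05 over all probe sets. Of the 15 target genes tested, 4 were called higher and 1 lower at pregnancy against puberty (background 6.2% and 5.22%), 1 higher and 5 lower at lactation against pregnancy (21.6% and 19.7%) and 5 higher and 1 lower at involution against lactation (22.1% and 23%).

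Rspo1, which encodes an R-spondin that keeps WNT receptors at the surface, had the widest change of all the pathway genes named here. It gave 0.6, 1.3 and 1.1 at puberty, 166.2 and 184.5 at pregnancy, 2.9 and 4.8 at lactation and 1.6 and 3.5 at involution. It was at least 8.76-fold higher at pregnancy than at puberty (log2 difference 3.13, SE 0.16, adjusted p = 3.2e-05) and lower by the same bound at lactation than at pregnancy (log2 difference -3.13, adjusted p = 1.79e-05). Both calls passed under all 21 alternatives. All Rspo1 arrays but those of pregnancy were set to the floor, so the SE and p-values leave out their replicate variation. Tnfsf11, which encodes RANKL, the ligand through which progesterone acts on neighbouring cells, gave 12.3, 16.1 and 15.2 at puberty, 70.5 and 66.0 at pregnancy, 11.4 and 6.7 at lactation and 17.1 and 21.3 at involution. It was at least 3.41-fold higher at pregnancy than at puberty (log2 difference 1.77, adjusted p = 0.000325). All Tnfsf11 arrays of puberty and lactation were set to the floor, so that p-value leaves out their replicate variation. Rspo1 and Tnfsf11 each passed the filter at pregnancy alone, the stage at which they were then called higher. Wnt4, Rspo1 and Tnfsf11 were thus at or just above the floor at every stage but pregnancy.

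The cell cycle genes Ccnd1, encoding cyclin D1, and Myc, both listed as WNT targets, were high at pregnancy and low at lactation. Ccnd1 gave 325.7, 330.1 and 259.6 at puberty, 871.0 and 729.0 at pregnancy, 127.7 and 197.5 at lactation and 531.2 and 591.7 at involution. The log2 difference was 1.39 for pregnancy against puberty (adjusted p = 0.00449), -2.33 for lactation against pregnancy (adjusted p = 0.000148), 1.82 for involution against lactation (adjusted p = 0.000337) and 0.89 for involution against puberty (adjusted p = 0.0343). The first came to 1.27 and was no longer called without pregnancy replicate 1, and the last was lost under 14 alternatives. On the dimmest Ccnd1 probe set the F test did not pass (adjusted p = 0.0962). There pregnancy against puberty came to 0.91 (adjusted p = 0.194) and involution against lactation to 0.42 (adjusted p = 0.453). Involution against puberty turned to -0.055 on it, and only lactation against pregnancy still passed. Myc gave 60.3, 39.3 and 41.0 at puberty, 109.2 and 140.8 at pregnancy, 13.8 and 19.7 at lactation and 61.9 and 46.9 at involution. Its log2 difference was 1.43 for pregnancy against puberty (adjusted p = 0.0104, 0.108 without pregnancy replicate 2), and both lactation arrays were under the floor, for -2.63 against pregnancy (adjusted p = 0.000271). Id2, a target with a part in alveolar growth, gave 689.3 and 900.8 at pregnancy, against 294.2, 296.5 and 226.2 at puberty (log2 difference 1.54, adjusted p = 0.0014).

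Others moved at lactation. Wls, which carries WNT proteins to the surface, gave 360.6 and 402.7 at lactation, against 237.7 and 221.2 at pregnancy (log2 difference 0.73, adjusted p = 0.0161), a call lost without either pregnancy array (0.0624 and 0.0872) or either lactation array (0.0546 and 0.0892). Csnk1d, a casein kinase of the pathway, gave 652.2 and 771.4 at lactation, against 401.8 and 268.3 at pregnancy (log2 difference 1.11, adjusted p = 0.00253). It was the 1 gene of the destruction complex list called higher in this contrast, and 2, Btrc and Csnk2a1, were called lower (background 21.6% and 19.7%). From the other lists Tle5, Ruvbl1 and Celsr2 were also called higher in it, and Gpc4 and Ptk7 lower. Tcf7l2, a TCF factor, gave 332.9 and 285.8 at lactation, against 177.2 and 147.3 at pregnancy (log2 difference 0.93, adjusted p = 0.0119), lost without pregnancy replicate 2 (0.0824) or lactation replicate 1 (0.0843). Tcf7l2 was thus highest at lactation and Lef1 at puberty. Ctbp2, a co-repressor, gave 328.6 and 329.5 at pregnancy, against 143.4, 139.5 and 121.0 at puberty (log2 difference 1.29, adjusted p = 0.00214), and passed under every alternative run. The glypican Gpc3, a co-receptor at the cell surface, gave 59.6 and 55.3 at lactation, against 138.3 and 131.1 at pregnancy (log2 difference -1.23, adjusted p = 0.0024).

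**Figure D5:**
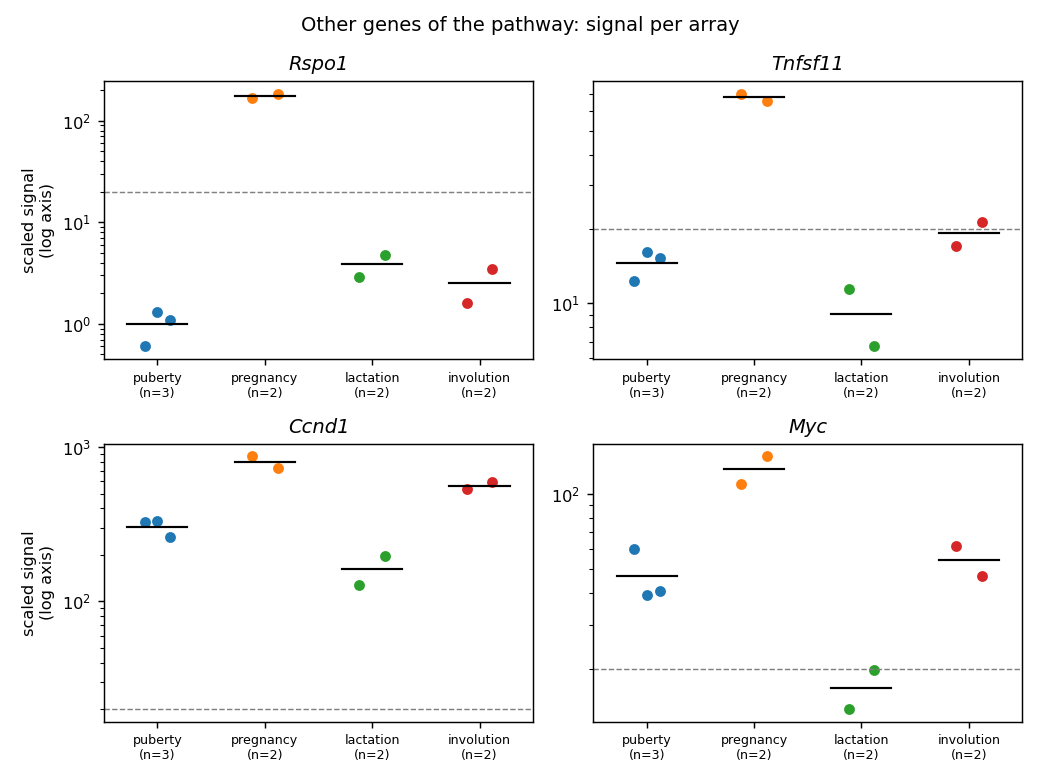
Scaled signal of Rspo1, Tnfsf11, Ccnd1 and Myc on each of the 9 arrays, by stage, with the stage mean as a bar and the floor of 20 dashed. All 4 are highest on the 2 pregnancy arrays.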

How the data were processed

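The authors hybridised RNA of 9 glands to MG-U74Av2 arrays and deposited linear MAS5 signal intensity per probe set, whose version is not given in the sources used here. The deposited values have a trimmed mean of 125 on every array and medians of 48.1 to 53.8, with no log and no centring per gene, and the filter and per-gene normalization named in the methods are not in them. After removal of 66 control probe sets, each array was scaled to the same median (factors 0.948 to 1.06), a floor of 20 was set and values were put on the log2 scale, so that fold changes of dim genes are understated. Printed signals are the scaled values without the floor. Of 12422 probe sets, the platform annotation gives 10833 a single symbol and 396 several, and does not list 1193. For 10817 of the 10833 the Entrez ID was found in RefSeq's GRCm38.p6 annotation, and the symbol was taken from there, whether or not it differed. This changed 0 of the WNT symbols. The 9783 probe sets with a stage mean above 20 were fitted with limma 3.58.1 in R 4.3.3 (lmFit, eBayes with a trend), over all 9 arrays with 1 shared spread, as an F test over the stages, since the methods name an analysis of variance, and 4 contrasts. The Benjamini-Hochberg adjustment ran over the 9783 probe sets, with a threshold of 0.05. A fold against a stage with all arrays at the floor is a lower bound. Such a stage adds no spread to the fit, so the SE and p-values leave out its replicate variation. A gene above the filter at 1 stage was tested through that stage alone. Genes are named where they are WNT genes that passed in any test, or among up to 4 genes per pathway list with the smallest adjusted p. Other genes were chosen after their values were seen. The WNT genes and the lists were chosen with earlier results of these data known. The steps were tested on simulated data. Alternatives were other scalings, floors, filters and probe sets, fits with no trend or no moderation, the replicate number as a block and the omission of each array. Promoter motifs were searched with Python 3.11.15, and figures drawn with matplotlib 3.10.9.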

Additional observations from a re-analysis of the deposited data

How the results depend on the processing

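The counts of WNT genes called were 10 by the F test, 4 for pregnancy against puberty, 7 for lactation against pregnancy, 6 for involution against lactation and 2 for involution against puberty. With a floor of 50 the F test called 6, and 37.1% of all probe sets against 51.6%. With 16 added to the signal in place of a floor, involution against puberty called 4 (8.43% of all). With a filter of 100, which left 12 WNT genes to test, the F test called 6 (69.6% of all), pregnancy against puberty 2 (19.5%) and lactation against pregnancy 4 (55.3%). With each gene's dimmest tested probe set the counts were 13, 4, 9, 9 and 2, closer to the shares of all probe sets in the F test and both contrasts with lactation. Leaving out 1 array at a time gave 6 to 11 by the F test, 2 to 5 for pregnancy against puberty, 5 to 10 for lactation against pregnancy, 4 to 8 for involution against lactation and 0 to 2 for involution against puberty. Leaving out pregnancy replicate 2 gave the lowest counts by the F test (6, with 43.1% of all) and for pregnancy against puberty (2, with 2.92% of all), and without involution replicate 2 limma called 0 for involution against puberty, with 8 at an unadjusted p under 0.05 and 2.5% of all probe sets called against 7.48%. Without puberty replicate 1 or 2 it called 1 there (3.79% and 4.91% of all). The replicate numbers do not pair the samples, since the arrays are of separate females and same-numbered arrays correlated at -0.153 to 0.049 in their deviations. With the replicate number as a block, where puberty replicate 3 adds nothing, the counts were 8, 4, 7, 4 and 2. Of 1789 values of named genes recomputed, 1566 kept their direction and call, 220 lost the call and 3 turned in direction. These were all on the dimmest probe set of the gene, namely Ccnd1 for involution against puberty (-0.055) and Ruvbl1, a helicase that binds beta-catenin, for lactation against pregnancy (-0.19, against 1.43 on its brightest probe set) and involution against lactation (0.17, against -2.17). The cause was not tested. Signal over background limits the ligands most, with 5 of 14 at the floor and 5 near background, and for these the absence of a call says little about their transcripts.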
